A study of Ovis aries with 9 samples.

Results

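Propionate reaches succinate through a short mitochondrial route, and the 9 genes described here encode its enzymes and their cofactor proteins: PCCA, PCCB, MCEE, MMUT, MMAA, MMAB, SUCLG1, SUCLG2 and SUCLA2. They were chosen by name from a table of 21257 genes measured by RNA sequencing in the liver of Tan sheep. All 9 were present under these symbols, and all 9 passed the filter on low values that left 11944 genes for testing.

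In ruminants, propionate made by rumen microbes is a main precursor of glucose, and the liver removes most of it from portal blood. Once activated, propionyl-CoA is carboxylated to methylmalonyl-CoA by a biotin enzyme, epimerised, and rearranged to succinyl-CoA by a mutase that needs adenosylcobalamin, a form of vitamin B12. Succinyl-CoA synthetase then releases succinate and makes GTP or ATP, so that the route ends in the compound that was added to the diet.

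Male sheep aged 5 months received a basal diet (control), the basal diet with 1% succinate, or the basal diet with 2% succinate, for a trial of 60 days after a pretrial period of 10 days. The feeding trial held 30 sheep, kept in 5 stalls of 2 per group, and 3 liver libraries per group are described here. Whether each library stands for a separate sheep or stall is not labelled, so each p-value speaks for differences among libraries, part of which may be technical. By its treatment label 1% library 3 belongs at 1%, but its title gives 2%. It was kept at 1%, and some of the changes with it placed at 2% are also given.

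Reads recovered from the table numbered 13818648 to 18172528 per library. The 8 hepatocyte markers examined all passed the filter, with summed levels of 38315 to 62488 FPKM (fragments divided by gene model length and by library size) in controls, 52164 to 60477 FPKM at 1% and 56446 to 68192 FPKM at 2%. Of 7 skeletal muscle markers 0 passed, the muscle creatine kinase CKM and the myosin MYH1 were listed at 0 in every library, and the highest value of any was 0.296 FPKM. Summed markers of T and NK cells were lower in every dosed library, at 10.5 to 15.8 FPKM at 1% and 12.5 to 16.6 FPKM at 2%, against 17.4 to 27.2 FPKM in controls. Summed markers of stellate cells and fibroblasts were 121.8, 43.6 and 179.3 FPKM at 2%, 53.5 to 62.9 FPKM at 1% and 50.1 to 62.3 FPKM in controls, so that 2% libraries 1 and 3 stood above all others; their part in any difference at 2% was not tested. For every gene in such bulk tissue, fewer cells of a type and less RNA per cell cannot be told apart.

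The levels of the 9 genes spanned 65.3-fold between the highest and the lowest mean over the 9 libraries. The most abundant were genes of the last enzymes of the route: SUCLG2 averaged 171.9 FPKM and MMUT 168.9 FPKM, which placed each within the highest 2.89% of tested genes. SUCLG1 followed at 111.3 FPKM, MCEE at 68.4, PCCB at 64.5 and PCCA at 45.5 FPKM. Transcripts for the proteins that prepare the cobalamin cofactor were less abundant, with MMAB at 18.6 FPKM and MMAA at 2.63 FPKM, and 77.8% of tested genes stood at or above MMAA. SUCLA2 lay between those, at 7.48 FPKM. The ranges over the 9 libraries overlapped between neighbours in this order, except that every PCCA value exceeded every MMAB value and every SUCLA2 value exceeded every MMAA value. The least covered value in the pathway was that of MMAA in 2% library 1, with 115 reads, whereas MMUT had at least 5471 reads in each library.

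**Figure D1:**
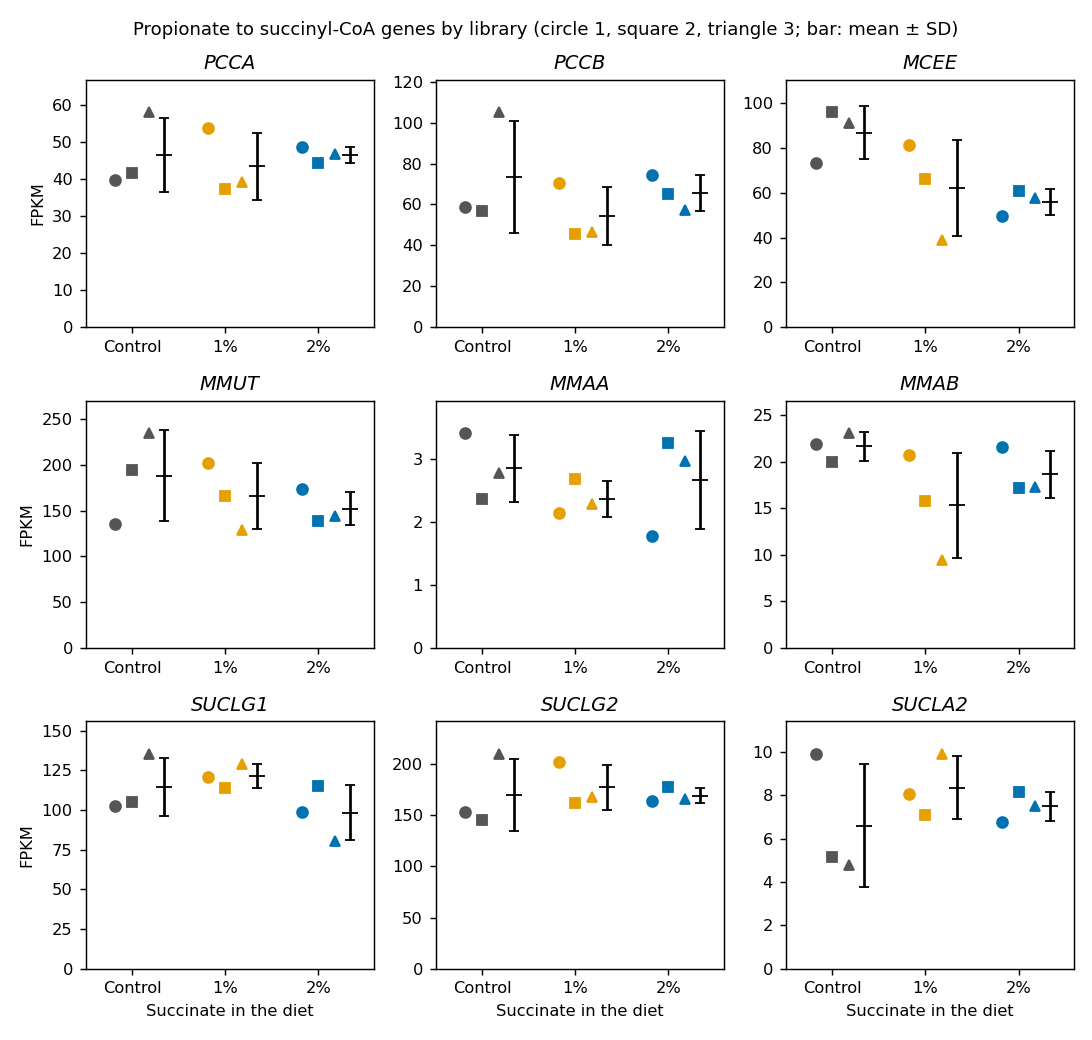
Level of each pathway gene (vertical axis, FPKM, starting at 0) in control, 1% and 2% succinate liver (horizontal axis), with 1 point per library and the mean ± SD of 3 libraries beside it. The 3 libraries at 2% lie below the 3 controls for MCEE and within or across the control range for the other 8 genes.

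The first question was whether dietary succinate was accompanied by a change in these genes. None of the 9 passed in any comparison with limma at an adjusted p under 0.05, the adjustment running over all 11944 tested genes: 0 of 9 at 1% against control, where 0.0167% of tested genes passed, and 0 of 9 at 2% against control, where 0.0502% passed. It was likewise 0 of 9 at 2% against 1%, where 0% passed, and 0 of 9 for the trend with dose, where 0.0251% passed. At an unadjusted p under 0.05 the members numbered 0 at 1%, 1 at 2%, 0 between the doses and 1 for the trend, against 14.9%, 5.18%, 7.48% and 4.23% of all tested genes. Voom, the count-weighted form of limma, gave the same 0 calls and the same 0, 1, 0 and 1 on recovered reads. The single member was MCEE in both fits. Quantile and median-ratio scaling each gave 1, 0, 0 and 0 instead, with SUCLA2 at 1% as the 1, at unadjusted p values of 0.0332 and 0.0322, and MCEE at 2% at 0.084 and 0.0643.

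As a group, the pathway lay close to the table as a whole at each dose against control, and on the other side of 0 from it between the doses. At 1% against control 6 of the 9 genes had a log2 change below 0, with a median of -0.17, beside 68.6% of all tested genes below 0 and their median of -0.14. At 2% it was again 6 of 9, with a median of -0.11, beside 60.7% and -0.05. Between the doses, 2% against 1%, 5 of 9 were below 0 and the median was -0.06, beside 38.2% and 0.07. Median-ratio scaling moved the median of all tested genes at 1% to -0.01 and that of the members to -0.01. At 2% against 1% the same scaling put all tested genes at -0.01 and the members at -0.16.

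**Figure D2:**
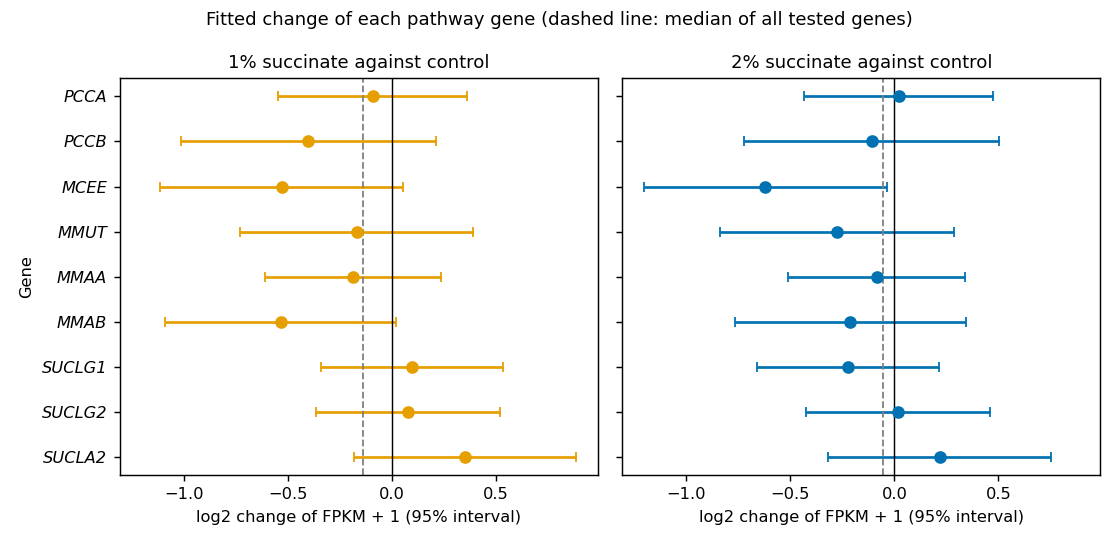
Fitted log2 change of FPKM + 1 (horizontal axis) for each pathway gene (vertical axis), at 1% against control on the left and 2% against control on the right, with 95% intervals. The interval lies wholly below 0 only for MCEE at 2%, from -1.20 to -0.04, before any adjustment for the number of genes tested.

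Entry into the pathway is by propionyl-CoA carboxylase, whose alpha subunit, PCCA, carries the biotin and whose beta subunit, PCCB, transfers the carboxyl group. PCCA had 39.8, 41.6 and 58.1 FPKM in controls, 53.8, 37.2 and 39.3 FPKM at 1%, and 48.6, 44.3 and 46.7 FPKM at 2%. All 3 groups overlapped, and 1 library in each of the control and 1% groups stood above its partners. The log2 change was -0.09 at 1% (SE 0.203, adjusted p = 0.845, limma) and 0.02 at 2% (SE 0.203, adjusted p = 0.995). PCCB had 58.7, 56.7 and 105.3 FPKM in controls, 70.7, 45.5 and 46.5 FPKM at 1%, and 74.7, 65.1 and 57.3 FPKM at 2%. Control 3 was the highest library for both subunits, and the groups overlapped for PCCB as well. The change of PCCB was -0.40 at 1% (SE 0.274, adjusted p = 0.484) and -0.11 at 2% (SE 0.274, adjusted p = 0.988). Without control 3 these became -0.12 and 0.18, and with 1% library 3 placed at 2% they were -0.31 and -0.23.

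Because both subunits are read in the same library, their ratio does not depend on how libraries are scaled. PCCA stood at 0.761, 0.817 and 0.845 times PCCB at 1%, against 0.677, 0.733 and 0.552 in controls, so every library at 1% lay above every control. At 2% the ratio was 0.651, 0.68 and 0.814, which overlapped both of the other groups. No test was run on these ratios, and how often ratios of other gene pairs separate in this way was not counted. On the log2 scale the ratio averaged -0.62 ± 0.21 in controls, -0.31 ± 0.08 at 1% and -0.49 ± 0.17 at 2% (SD, n = 3).

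Methylmalonyl-CoA epimerase, MCEE, turns the carboxylation product into the mirror form that the mutase accepts, and it was the pathway gene with the clearest separation between groups. MCEE had 49.5, 60.9 and 57.6 FPKM at 2%, against 73.4, 96.1 and 91.1 FPKM in controls. Every library at 2% lay below every control, and the spread at 2% was narrow. At 1% the values were 81.4, 66.1 and 39 FPKM, the first above 1 control and the last below every other library of the series. The mean was 56 ± 5.84 FPKM at 2% against 86.9 ± 11.9 FPKM in controls (SD, n = 3), a log2 change of -0.62 (SE 0.26, 95% interval -1.20 to -0.04). Its unadjusted p was 0.0393, and with limma and adjustment over all tested genes the p was 0.95, so MCEE did not pass. MCEE was 1 of 9 members whose libraries at 2% all lay below the controls, beside 8.02% of all tested genes, and 0 of 9 members lay above, beside 2.6%. At 1% against control 0 of 9 members had groups that did not overlap, in either direction, beside 15.6% of all tested genes lower and 2.28% higher. At 2% against 1% it was also 0 of 9, beside 3.33% lower and 11% higher. These counts moved with single libraries. Leaving out a library can only add separations, and the matching shares of all tested genes were not counted. Without 1% library 3, MCEE at 2% lay wholly below 1%. Without control 3, SUCLG1 and SUCLG2 lay wholly above control at 1%, and PCCA and SUCLG2 did so at 2%. Without 1% library 1, PCCA, PCCB, MCEE and MMAB lay wholly below control at 1%. Without control 1, SUCLA2 lay wholly above control at both doses, MCEE wholly below at 1% and MMUT wholly below at 2%. Without control 2, MMAA and MMAB lay wholly below control at 1%, and MMAB did so at 2%. Other omissions added further cases. For MCEE at 2% against control, leaving out a library could not create an overlap, so it was no check on that separation. In the same contrast the summed T and NK cell markers lay below all controls, but 0 of the 4 tested markers did so singly. How often such sums separate was not counted, and the part of these markers in the MCEE difference was not tested.

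At 1% MCEE averaged 62.2 ± 21.4 FPKM (SD, n = 3), a log2 change of -0.53 against control (SE 0.26, adjusted p = 0.37). This value leaned on the library with conflicting labels: without 1% library 3 it was -0.23, and with that library placed at 2% it was also -0.23 at 1% and -0.75 at 2% (adjusted p = 0.433, limma). At 2% against 1% the change of MCEE was -0.09, and -0.51 with that library placed at 2% (unadjusted p = 0.0469, adjusted p = 0.999, limma). At 2% against control the change stayed between -0.74 and -0.54 when each library was left out in turn. Its unadjusted p there was under 0.05 in 9 of 17 alternatives and ran from 0.00406 to 0.114. The slope with dose was -0.31 on the log2 scale per 1% of succinate (SE 0.131, unadjusted p = 0.0382, adjusted p = 0.998).

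Methylmalonyl-CoA mutase, MMUT, is the enzyme that forms succinyl-CoA. It had 136, 194.2 and 235.2 FPKM in controls, 202.2, 166.1 and 129.4 FPKM at 1%, and 173.4, 139.2 and 144.7 FPKM at 2%. Controls alone spanned nearly the whole range of the series, and every group overlapped the others. The log2 change was -0.17 at 1% (SE 0.251, adjusted p = 0.755, limma) and -0.28 at 2% (SE 0.251, adjusted p = 0.952). The 95% intervals ran from -0.73 to 0.39 and from -0.84 to 0.29, so these data do not show that MMUT was at the same level in the groups. With 1% library 3 placed at 2% the changes were -0.0048 at 1% and -0.33 at 2%.

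MMAB, the adenosyltransferase that makes the cofactor of the mutase, had 21.9, 20 and 23.1 FPKM in controls, 20.7, 15.8 and 9.43 FPKM at 1%, and 21.6, 17.2 and 17.2 FPKM at 2%. The value of 9.43 FPKM, in 1% library 3, was the lowest of the series, and the other 8 libraries lay between 15.8 and 23.1 FPKM. The log2 change at 1% was -0.54 (SE 0.247, adjusted p = 0.351), the smallest adjusted p of any member in that comparison, and at 2% it was -0.21 (SE 0.247, adjusted p = 0.954). Without 1% library 3 the change at 1% was -0.25, and with it placed at 2% the change there was -0.44 (adjusted p = 0.628). At 2% against 1% the change of MMAB was 0.32, and -0.19 with that library placed at 2%. MMAA, a GTPase that assists loading of the cofactor onto the mutase, had 3.42, 2.37 and 2.78 FPKM in controls, 2.14, 2.69 and 2.28 FPKM at 1%, and 1.78, 3.26 and 2.98 FPKM at 2%. Its groups overlapped throughout, with log2 changes of -0.19 at 1% (adjusted p = 0.634) and -0.09 at 2% (adjusted p = 0.983).

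**Figure D3:**
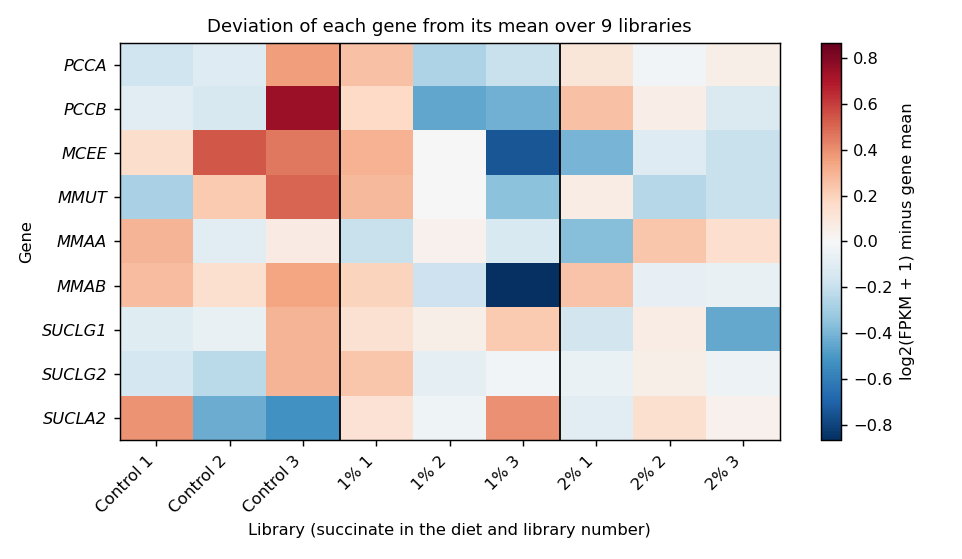
Deviation of log2(FPKM + 1) from the mean of each pathway gene over the 9 libraries (colour, red above and blue below), with genes as rows and libraries as columns in order of dose. Control 3 is red for all genes but SUCLA2, and 1% library 3 holds the deepest blue, for MCEE and MMAB.

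The pathway closes with succinyl-CoA synthetase, a dimer of a shared alpha subunit, SUCLG1, and a beta subunit that sets the nucleotide: SUCLG2 for GTP or SUCLA2 for ATP. SUCLG1 had 102.3, 105.3 and 135.5 FPKM in controls, 121, 114.1 and 129.1 FPKM at 1%, and 98.6, 115.3 and 80.6 FPKM at 2%. The lowest value of the series was in 2% library 3, and the groups overlapped. The log2 change was 0.10 at 1% (SE 0.195, adjusted p = 0.832, limma), -0.22 at 2% (SE 0.195, adjusted p = 0.952) and -0.32 at 2% against 1% (SE 0.195, adjusted p = 0.733). The difference between the doses had the smallest adjusted p of any member there. With 1% library 3 placed at 2% the 3 changes of SUCLG1 were 0.05, -0.12 and -0.17.

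SUCLG2 had 153.3, 145 and 209.9 FPKM in controls, 202.3, 161.4 and 167.8 FPKM at 1%, and 164, 177.3 and 165.9 FPKM at 2%. It varied least of the 9 genes, by 1.45-fold between the highest and the lowest library, and its log2 changes were 0.08 at 1% and 0.02 at 2% (SE 0.197 each, adjusted p = 0.873 and 0.995). SUCLA2 had 9.88, 5.15 and 4.77 FPKM in controls, 8.06, 7.08 and 9.91 FPKM at 1%, and 6.77, 8.14 and 7.52 FPKM at 2%. Control 1 stood at the top of its group, near the highest library at 1%, while controls 2 and 3 were the lowest of the series. The log2 change was 0.35 at 1% (SE 0.239, adjusted p = 0.486) and 0.22 at 2% (SE 0.239, adjusted p = 0.954), and without control 1 it was 0.64 and 0.51, with adjusted p values of 0.241 and 0.728.

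The GTP form was the prevailing beta subunit transcript in every library. Per length, SUCLG2 exceeded SUCLA2 by 15.5-, 28.2- and 44-fold in controls, 25.1-, 22.8- and 16.9-fold at 1%, and 24.2-, 21.8- and 22.1-fold at 2%. The controls alone spanned more than both dosed groups, whose values lay inside the control range. The log2 ratio averaged 4.74 ± 0.76 in controls, 4.41 ± 0.30 at 1% and 4.50 ± 0.08 at 2% (SD, n = 3). The alpha subunit stood at 0.627, 0.701 and 0.631 times the sum of both beta subunits in controls, 0.575, 0.677 and 0.727 times at 1%, and 0.577, 0.622 and 0.465 times at 2%. All 3 values at 2% lay below all 3 controls, but only narrowly, with the nearest at 0.622 and 0.627. Those at 1% overlapped both other groups, and no test was run on these ratios either. With 1% library 3, at 0.727, placed at 2%, the 2% group overlapped the controls.

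**Figure D4:**
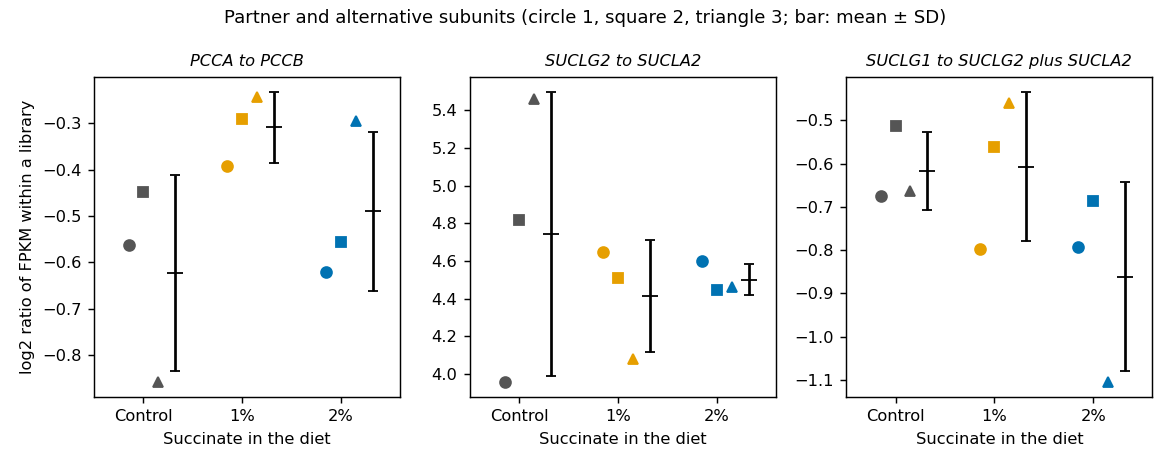
Log2 ratio of FPKM within each library (vertical axis) for the carboxylase subunits, the alternative beta subunits of succinyl-CoA synthetase and its alpha subunit against both beta subunits, by succinate in the diet (horizontal axis), with 1 point per library and the mean ± SD of 3 libraries. Ratios of PCCA to PCCB at 1% lie above all controls, and the SUCLG2 to SUCLA2 ratio spreads most in controls, from 3.96 to 5.46.

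Across libraries the 9 genes did not move as one block. In control 3 a total of 8 of the 9 genes were above their own median over the series, and 6 of the 9 had their highest value there. Its summed hepatocyte markers, 62488 FPKM, were above the 38315 and 39804 FPKM of controls 1 and 2 and within the range of the dosed libraries. That difference rested on albumin, ALB, at 43479.6 FPKM in control 3 against 13764.8 and 18208.2 FPKM in the other controls. Without ALB the sum in control 3 was not above theirs. The part of these markers in the pathway levels was not tested. SUCLA2, the gene of the alternative beta subunit, was the exception, with its lowest value of the series in control 3. In 1% library 1 also 8 of 9 genes were above their median, whereas 1% library 3 held the lowest value of 3 genes, MCEE, MMUT and MMAB, and the highest value of SUCLA2. Summed over the 9 genes, the level was 598.7, 666.4 and 865.7 FPKM in controls, 762.2, 616.1 and 572.8 FPKM at 1%, and 638.9, 630.7 and 580.5 FPKM at 2%. These sums overlapped between all groups, and libraries at 2% differed least among themselves.

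The profile over the 9 libraries was compared with that of every other tested gene by the mean absolute difference of standardised log2 levels. The closest 5 with a symbol were QDPR (dihydropteridine reductase), THEM4 (an acyl-CoA thioesterase), GLS2 (liver glutaminase), GRHPR (glyoxylate and hydroxypyruvate reductase) and MGST1 (a microsomal glutathione transferase). Their differences from the mean profile of the members were 0.334 to 0.375 SD, against a median of 0.845 SD for all such genes. All 5 were highest in control 3 and next highest in 1% library 1, as was the mean profile by which they were chosen. QDPR, the closest, had 170.6 FPKM in control 3, 114.4 FPKM in 1% library 1 and 36.9 FPKM in 1% library 3.

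The steps around the pathway were read from 7 lists with 53 tested genes. At 1% against control 0 of the 53 passed, beside 0.0167% of all tested genes. There 6 had an unadjusted p under 0.05, beside 14.9% of all tested genes. At 2% against control 1 passed, lower, and 0 passed higher, beside 0.0502% of all tested genes. There 4 had an unadjusted p under 0.05, beside 5.18%. At 2% against 1% 0 passed with limma, beside 0% of all tested genes, and 1 had an unadjusted p under 0.05, beside 7.48%. The gene that passed at 2% was ALAS1, which joins succinyl-CoA to glycine in the first step of heme synthesis and so draws on the product of MMUT. Its result in these data was known when the lists were chosen, so the count of calls among the listed genes follows partly from that choice. ALAS1 had 30.3, 30.1 and 34.4 FPKM at 2%, against 190.6, 106.4 and 169.7 FPKM in controls, and it stood between them at 1% with 61.3, 81.6 and 84.5 FPKM. It fell by 2.22 on the log2 scale at 2% (SE 0.238, adjusted p = 0.0155, limma), and its slope with dose was -1.11 per 1% of succinate (SE 0.116, adjusted p = 0.00929). The other makers and users of succinyl-CoA, 5 of the 6 tested, did not pass, and among them SUGCT, a succinyl-CoA:glutarate-CoA transferase, was at 6.55 ± 4.56 FPKM at 1% against 9.52 ± 4.95 FPKM in controls (SD, n = 3, adjusted p = 0.573).

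The ALAS1 call at 2% turned on single libraries. Its adjusted p with limma was 0.152 without control 1, 0.119 without control 3, 0.105 without 2% library 1, 0.0881 without 2% library 2 and 0.075 without 2% library 3. It was 0.218 with 1% library 3 placed at 2% and 0.0525 in a fit of the groups compared alone. The slope did not pass without control 1 (0.0795) or without 2% library 1 (0.0819), 2 (0.0921) or 3 (0.0549), nor with 1% library 3 placed at 2% (0.166). In each of these fits the log2 change at 2% was -1.88 or lower.

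Cobalamin handling had 8 tested genes and 0 passed at either dose. MTRR, the reductase that keeps the other cobalamin enzyme, methionine synthase, in its active state, had 4.05, 3.67 and 3.42 FPKM at 1% and 3.47, 3.23 and 3.53 FPKM at 2%, against 7.66, 5.97 and 8.91 FPKM in controls. All 6 dosed libraries lay below all 3 controls, beside 15.6% of all tested genes wholly lower at 1% and 8.02% at 2%. The share of genes wholly lower at both doses was not counted. MTRR was named for its small p against control, so its separation is partly a matter of that choice. The log2 change was -0.84 at 1% (SE 0.154, adjusted p = 0.133, limma) and -0.93 at 2% (SE 0.154, adjusted p = 0.151), and both comparisons share the controls. MTR, methionine synthase itself, was at 6.95 ± 0.89 FPKM at 1% against 8.77 ± 1.77 FPKM in controls (SD, n = 3, adjusted p = 0.427).

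Among the 12 genes of amino acid routes to propionyl-CoA, 0 passed. BCKDHA, a subunit of the branched-chain keto acid dehydrogenase, had 11.1, 8.48 and 5.2 FPKM at 1% and 9.01, 9.81 and 9.22 FPKM at 2%, against 13.3, 16.6 and 15.2 FPKM in controls. The dosed libraries again all lay below the controls, beside the same 15.6% and 8.02% of all tested genes for each dose alone. BCKDHA too was named for its small p. The log2 change was -0.84 at 1% (SE 0.225, adjusted p = 0.254, limma) and -0.63 at 2% (SE 0.225, adjusted p = 0.903). ACAT1, the mitochondrial acetoacetyl-CoA thiolase of isoleucine breakdown, was at 166.6 ± 43.2 FPKM at 1% against 237 ± 55.6 FPKM in controls (SD, n = 3, adjusted p = 0.356). Of 6 genes of propionate uptake and activation 0 passed. Of the acyl-CoA synthetases among them, ACSM1 was at 555.3 ± 44.2 FPKM at 1% against 449.9 ± 56.5 FPKM in controls (adjusted p = 0.469), and ACSM5 at 91.6 ± 16.4 FPKM at 2% against 111.8 ± 3.02 FPKM (adjusted p = 0.95).

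The remaining lists gave no call either. Of 8 genes for biotin handling and the other biotin carboxylases, ACACB, an acetyl-CoA carboxylase, was at 3.26 ± 2.56 FPKM at 1% against 8.79 ± 5.84 FPKM in controls (SD, n = 3, adjusted p = 0.323, limma). BTD, which recycles biotin, was at 15.1 ± 4.7 against 21.8 ± 3.1 FPKM (adjusted p = 0.381). In side metabolism of methylmalonyl-CoA all 4 genes had log2 changes below 0 at both doses, with medians of -0.42 at 1% and -0.22 at 2%, beside 68.6% of all tested genes below 0 and their median of -0.14 at 1%, and 60.7% and -0.05 at 2%. ECHDC1, which decarboxylates ethylmalonyl-CoA and methylmalonyl-CoA, was at 4.52 ± 1.51 FPKM at 1% against 6.58 ± 0.66 FPKM in controls (adjusted p = 0.315). CLYBL, a citramalyl-CoA lyase whose loss lowers vitamin B12 in humans, was at 1.78 ± 0.47 against 2.7 ± 0.09 FPKM (adjusted p = 0.297). On the way from succinate to phosphoenolpyruvate 9 of 9 genes were below 0 at 1% and 8 of 9 at 2%, with medians of -0.24 and -0.22, beside the same shares and medians of all tested genes. With median-ratio scaling this list had 7 of 9 below 0 at 1%, with a median of -0.08 beside -0.01 for all tested genes, and with quantile scaling 8 of 9 at 1% and 7 of 9 at 2%. FH, fumarase, was at 33.8 ± 13.3 FPKM at 1% against 52.5 ± 23.4 FPKM in controls (adjusted p = 0.396), and PCK1, the cytosolic phosphoenolpyruvate carboxykinase, at 277.4 ± 152.1 against 539.2 ± 269.2 FPKM (adjusted p = 0.419).

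**Figure D5:**
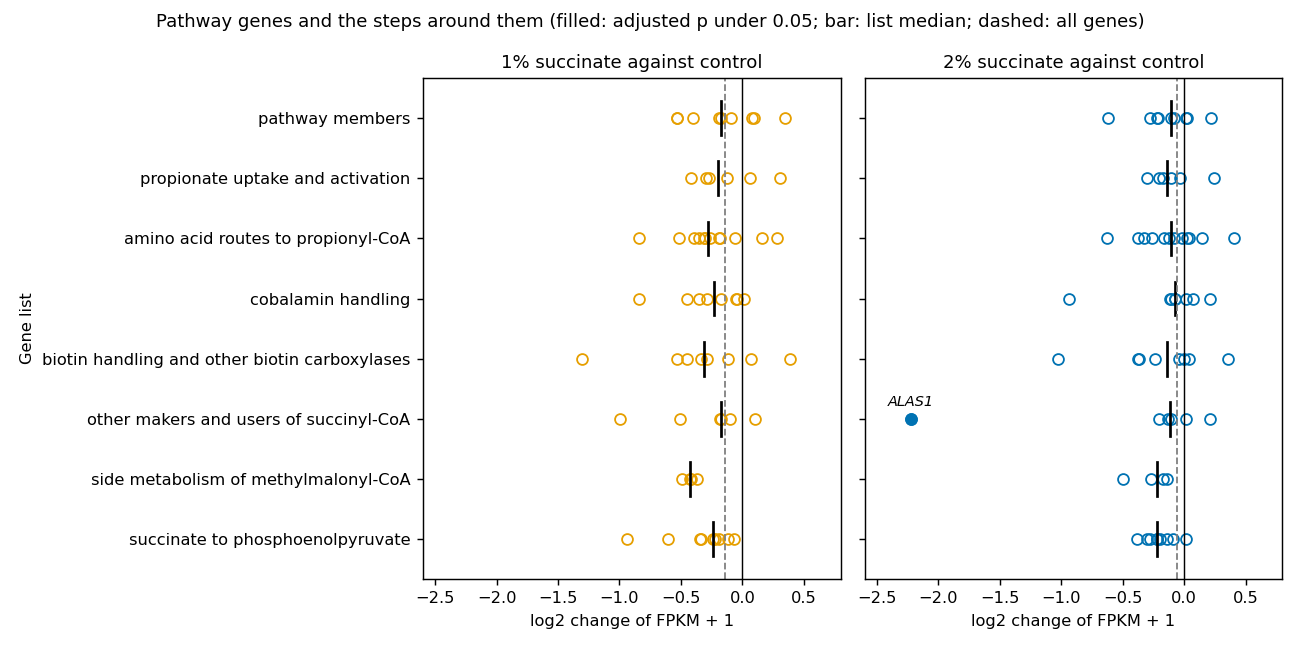
Log2 change of FPKM + 1 (horizontal axis) of the pathway genes and of 7 lists of genes around them (vertical axis), at 1% against control on the left and 2% against control on the right, with 1 circle per gene and a bar at the list median. The single filled circle is ALAS1 at 2%, at -2.22, and the bar farthest from the dashed median of all tested genes is that of side metabolism of methylmalonyl-CoA at 1%, at -0.42.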

How the data were processed

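The deposited values are FPKM, made by the authors, per the file headers. How reads were aligned and counted is not given in the sources used here. As genome builds, the submitters' processing notes name GRCm38 and mm10, which are mouse builds, while the gene names are those of sheep, so no coordinates are given. Whole reads came back from the FPKM steps for 17402 of 17402 genes above 0 in at least 2 libraries (100%, tolerance 0.01). For genes above 0 in only a few libraries such a fit is easily found, so the share is no check of the recovery there.

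Groups followed the treatment label. Values were tested as log2(FPKM + 1) with limma 3.58.1 (R 4.3.3), with all 9 libraries in 1 fit and an intensity trend, on 11944 genes with at least 1 FPKM in at least 3 libraries. Such changes understate those of low genes. P-values were two-sided and adjusted by Benjamini-Hochberg over all tested genes; the code was tested on simulated data. Intervals are 95% confidence intervals of the fitted change, with a standard error estimated from the spread between libraries. Recovered reads of any pair of libraries differed by a chi-square of at least 35.3 per degree of freedom. Python 3.11.15 handled tables and plots.

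The members and lists were chosen with earlier results of these data known, including that for ALAS1. All members were named; from each other list, genes that passed and the 2 with the smallest p against control. The listed genes SLC16A1, ACOT4 and CD163 were not analysed here. Summed marker levels overlapped between groups for Kupffer cells and macrophages (238.9 to 492 FPKM over all libraries), endothelial cells (69.5 to 107.8) and cholangiocytes (7.39 to 29.5).

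Alternatives were a pseudocount of 0.1, no filter, quantile and median-ratio scaling, 1% library 3 at 2%, a replicate block, fits of 2 groups alone, voom on recovered reads, and leaving out each library. The lists under each scaling and the overlap of groups without each library were added after the data were seen.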

Additional observations from a re-analysis of the deposited data

How the results depend on the processing

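None of the 9 members passed in any of 603 refits over 17 alternatives, with a smallest adjusted p of 0.133. Of the 36 log2 changes of members over the comparisons, 17 kept their sign throughout. For the others the cause was not tested. Median-ratio scaling turned PCCA at 1% to 0.061. Quantile scaling turned PCCA at 1% to 0.013, MMAA at 1% to 0.0102 and at 2% against 1% to -0.035, and PCCB at 2% to 0.013 and its slope to 0.0065; the members' median at 1% became 0.0102 with it. With 1% library 3 placed at 2%, PCCA was -0.038 at 2%, -0.0059 at 2% against 1% and -0.0187 in slope, MMAB and SUCLA2 at 2% against 1% were -0.19 and 0.076, and the log2 ratio of SUCLG2 to SUCLA2 at 2% was 4.40.

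Leaving out each library in turn moved PCCA from -0.25 to 0.074 at 1%, -0.079 to 0.19 at 2% and -0.027 to 0.096 in slope. PCCB ranged from -0.26 to 0.18 at 2% and -0.13 to 0.10 in slope, MMUT from -0.39 to 0.0058 at 1% and -0.27 to 0.049 at 2% against 1%, and MCEE from -0.39 to 0.13 at 2% against 1%. MMAA ranged from -0.20 to 0.10 at 2%, -0.0158 to 0.29 at 2% against 1% and -0.11 to 0.033 in slope, and SUCLG2 from -0.025 to 0.24 at 1%, -0.086 to 0.18 at 2%, -0.12 to 0.038 at 2% against 1% and -0.044 to 0.078 in slope.

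Over all genes, 2 passed at 1%, 6 at 2%, 0 between the doses and 3 in slope. Leaving out libraries gave 0 to 4, 0 to 7, 0 to 1 and 0 to 5; at 2% it was 0 without control 1, 2% library 1 or 2% library 3, and 1 without control 2, control 3 or 2% library 2. At 1% the count was 0 under each of the 8 other alternatives. At 2% it was 3 without a filter, 3 with voom, 1 with 1% library 3 at 2% and 0 with the 2 groups alone; in slope it was 0 with that library at 2%.

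The replicate numbers did not pair the libraries: the correlation of same-numbered deviations was -0.295 to 0.278, over 0.1 in 2 of 9 pairs, and the own number correlated best in 4 of 18 cases. With the replicate block the counts were 0 at 1%, 1 at 2% and 0 in slope, 0 members passed, 0 had an unadjusted p under 0.05 (MCEE at 2% was at 0.0561), and ALAS1 had an adjusted p of 0.109 at 2% and 0.0768 in slope.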
